A study of Homo sapiens with 4 samples.

Results

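In WM35 melanoma cells, C646 was set against its solvent at an early and at a late time. Of 10707 named genes past a filter on low values, 49 had at least 1.5-fold higher messenger RNA with C646 at both times. The 29 described here are those that remain without noncoding RNA genes and some genes left out by name. C646 blocks the acetyltransferase activity of p300 and of its close relative CBP, enzymes that place acetyl groups on histones at promoters and enhancers and serve many transcription factors as coactivators. WM35 came from a human melanoma in the radial growth phase, in which the tumour spreads within the upper skin layers. The MITF transcription factor governs the pigment cell lineage from which such tumours arise, and it uses p300 and CBP as partners.

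Messenger RNA was measured in cultures of WM35, kept in medium with 10% serum, on 4 exon arrays: DMSO at 0.2% for 6 h, DMSO at 0.2% for 24 h, C646 at 20 µM for 6 h and C646 at 20 µM for 24 h. Each group is 1 array, so every value below is a difference of an array against an array, with no replicate check, no error and no test. All values are log2 expression values as deposited, and a difference of 0.585 corresponds to 1.5-fold. The arrays correlated at 0.991 to 0.996 among both DMSO arrays and the C646 array of 6 h, and at 0.976 to 0.979 between those and the C646 array of 24 h. Of 6 melanocyte markers with a probe set of their own, all were past the filter on low values (a mean over the arrays of at least 3.96), with PMEL between 10.69 and 10.95.

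Of 10707 named genes past the filter, 49 were at least 1.5-fold higher with C646 at 6 h and also at 24 h. The rule that defines the set leaves out 11 noncoding RNA genes among them and 9 others that it names, such as the lineage factor MITF, which leaves 29 members: 27 protein-coding genes and the pseudogenes FRG2DP and PDCD6P1. The members were chosen by both C646 minus DMSO differences, so those differences are a description here and support nothing. At 6 h, 101 genes were at least 1.5-fold higher, which is 0.943% of all, and at 24 h 467 were, which is 4.36%. The genes higher at both times make up 0.458% of all genes, 48.5% of the 6 h list and 10.5% of the 24 h list. In the opposite direction, 53 genes, or 0.495%, were at least 1.5-fold lower at both times. The members' median difference was 0.72 at 6 h (range 0.59 to 1.14) and 0.83 at 24 h (range 0.59 to 1.54), beside medians of 0.0029 and 0.030 over all genes. A difference of at least 2-fold was reached by 5 members at 6 h and 11 at 24 h, sizes that 0.112% and 0.971% of all genes reached.

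**Figure D1:**
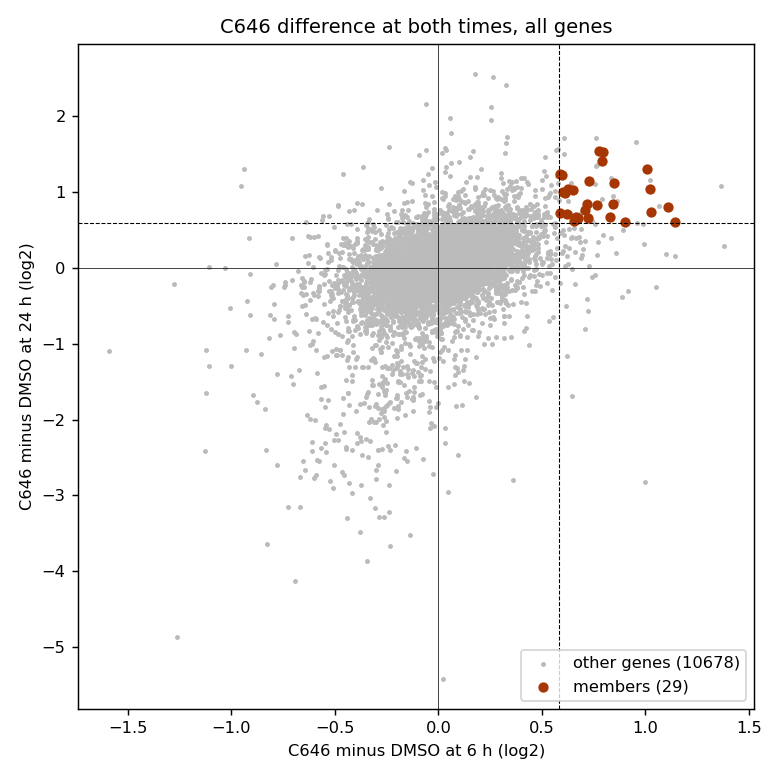
The C646 minus DMSO difference on the log2 scale at 6 h (horizontal) and 24 h (vertical) is plotted for 10707 genes, 1 point a gene, with the 29 members in red-brown and dashed lines at 0.585. The members fill the upper right corner by construction, and the grey points there are the genes that the rule leaves out by name or as noncoding RNA.

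The members have no common pathway by name. They include parts of calcium entry, vesicle traffic and secretion, surface receptors and a ligand, adaptors best known from lymphocytes, metabolic enzymes, a circadian repressor and genes derived from transposons. On all 29, both C646 arrays lay above both DMSO arrays, an ordering that 26.5% of all genes showed. For a gene that passes the rule, this ordering follows whenever its DMSO arrays differ by less than 1.5-fold. That held for every member, so the ordering is fixed by the rule here and supports nothing. The gap between the lower C646 value and the higher DMSO value ran from 0.27 to 1.01, with a median of 0.61.

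**Figure D2:**
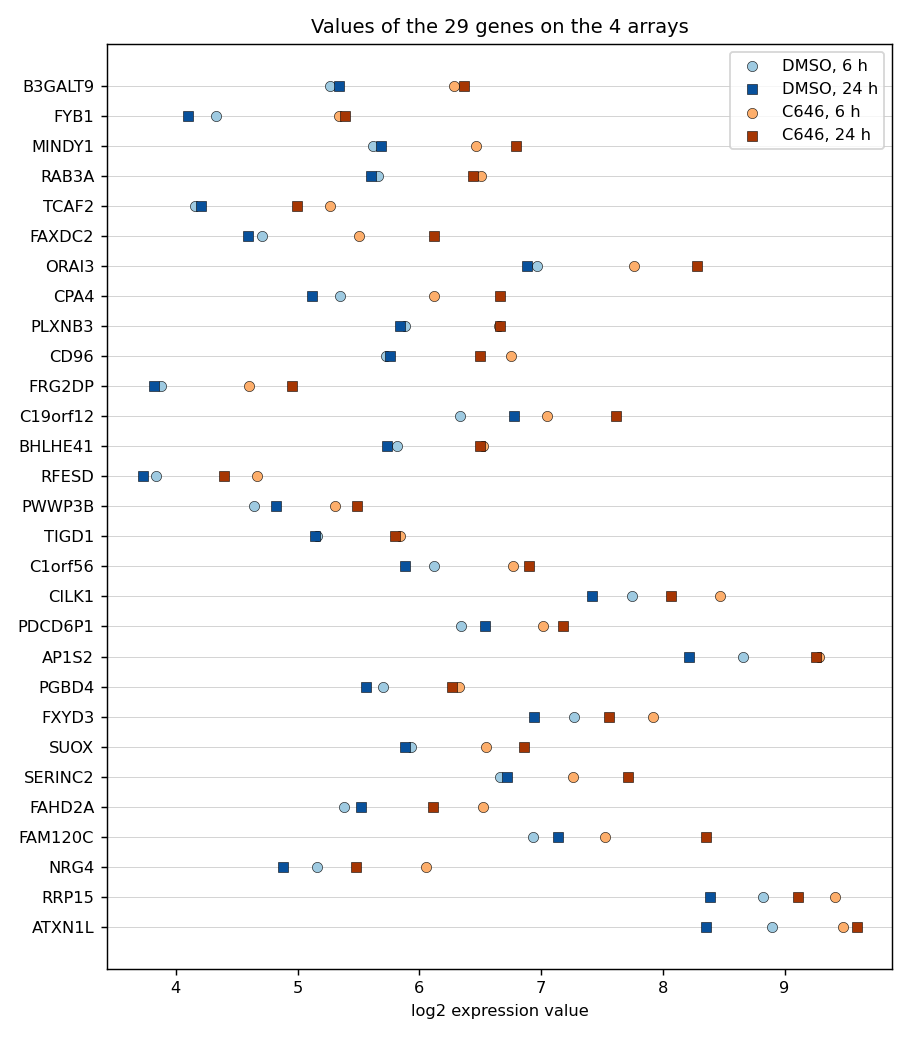
Each row is 1 of the 29 members and each point the log2 expression value of 1 array, blue for DMSO, orange to brown for C646, circles for 6 h and squares for 24 h. Rows are ordered by the smaller of both C646 differences, from B3GALT9 (1.02) to ATXN1L (0.59), and no blue point lies to the right of an orange or brown point of its row.

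Since the members were higher together, their RefSeq promoter windows were searched for 10 short motifs on both strands. A window (GRCh38.p14) runs from 250 bases before to 50 bases after the annotated start. Windows were available for 25 members, but not for CILK1, PWWP3B, FRG2DP and PDCD6P1. The sequences shown are those of 3 members that hold either the E-box CACGTG, which MITF, MYC and the circadian repressors of the BHLHE family recognise, or the M-box TCATGTG, known from MITF-bound pigmentation promoters. The windows are chr5:154850554-154850853 (minus strand) for FAXDC2, chr16:30948818-30949117 (plus strand) for ORAI3 and chr12:26124988-26125287 (minus strand) for BHLHE41. The motif is in capitals, the gene's own strand is written 5′ to 3′, and the motif starts at position -74 in FAXDC2, -33 in ORAI3 and -48 in BHLHE41, relative to the start site.
FAXDC2: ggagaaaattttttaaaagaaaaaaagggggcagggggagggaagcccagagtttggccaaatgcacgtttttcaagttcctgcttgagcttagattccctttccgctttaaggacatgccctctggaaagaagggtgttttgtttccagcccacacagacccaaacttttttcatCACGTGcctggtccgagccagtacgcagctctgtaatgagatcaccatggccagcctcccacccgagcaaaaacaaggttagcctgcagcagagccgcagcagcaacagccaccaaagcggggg
ORAI3: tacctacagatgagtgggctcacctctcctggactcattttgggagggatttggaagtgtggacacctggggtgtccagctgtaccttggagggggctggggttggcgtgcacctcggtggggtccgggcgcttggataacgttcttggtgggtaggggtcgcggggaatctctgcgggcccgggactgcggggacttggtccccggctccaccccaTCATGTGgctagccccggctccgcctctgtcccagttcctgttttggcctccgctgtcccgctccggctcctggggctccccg
BHLHE41: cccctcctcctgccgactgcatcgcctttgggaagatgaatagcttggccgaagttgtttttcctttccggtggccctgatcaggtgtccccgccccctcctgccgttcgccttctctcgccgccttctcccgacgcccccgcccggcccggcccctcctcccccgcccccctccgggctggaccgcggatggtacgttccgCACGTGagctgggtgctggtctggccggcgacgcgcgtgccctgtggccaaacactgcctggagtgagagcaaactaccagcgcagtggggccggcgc

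The E-box was in 5 of 25 members (20%), beside 12.8% of 8664 measured genes with a window. Counted per window and not per gene, it was in 7.26% of all 35116 windows. Of the 5 members with it, AP1S2, ATXN1L and RFESD rest on probe sets of doubtful assignment, described later, and their windows are not shown. Without the 3 members on such probe sets the E-box was in 2 of 22 (9.09%), below the 12.7% of 8255 genes counted the same way, so the direction turned. The M-box was in 1 of 25 members (4%), beside 2.44% of measured genes and 2.92% of all windows. The GC box GGGCGG was in 64% of members and 77.1% of measured genes (45% of all windows). The CCAAT box was in 32% and 43.1% (34.6%), and the core of the cAMP response element, TGACG, in 28% and 40.5% (24.6%). The core of the aryl hydrocarbon receptor element, GCGTG, was in 48% and 58.8% (36.5%), and the AP-1 site TGANTCA in 4% and 6.74% (7.71%). The forkhead site GTAAACA was in 8% and 3.53% (3.42%), the cell cycle element TTTGAA in 20% and 13.7% (15.2%), and the TATA box TATAAA in 8% and 8.69% (11.5%). Without those 3 members the TATA box also changed sides, at 9.09% beside 8.63%. None of these motifs lies whole within another. The median GC content was 62.3% in members and 65% in measured genes. It ran from 41% for CD96 and 41.3% for FYB1, whose windows hold 6 and 2 CpG dinucleotides, to 79.1% for C19orf12. A match says only that these letters are in the window. The 25 members have 36 windows, so shares of all windows are not per gene. Only the shares of measured genes are a like measure to those of members.

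Store-operated calcium entry refills calcium stores through ORAI channels in the plasma membrane, which STIM sensors open. ORAI3 (probe set 3656665) encodes 1 of the channel subunits. It read 6.97 with DMSO and 7.76 with C646 at 6 h, and 6.88 with DMSO and 8.28 with C646 at 24 h. The differences were 0.79 and 1.399, so both C646 values stood above both DMSO values, with the 24 h array highest. None of the other 4 measured genes of this system came near: ORAI1 differed by 0.12 and -0.17, ORAI2 by -0.0053 and -0.093, STIM1 by -0.051 and 0.14, and STIM2 by 0.098 and 0.28.

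TCAF2 (3029383), which binds the cold-sensing channel TRPM8 and affects its traffic to the surface, read 4.16 and 5.26 with DMSO and C646 at 6 h, and 4.20 and 5.00 at 24 h. Its difference was larger at 6 h, at 1.11, than at 24 h, at 0.80. Its neighbour and relative TCAF1 differed by 0.17 and -0.0076, and TRPM8 by 0.40 and 0.030. FXYD3 (3830166), a small regulator of the sodium pump, read 7.27 and 7.92 at 6 h and 6.94 and 7.55 at 24 h. Both treatments were lower at the later time, by 0.33 in the DMSO values and 0.37 in the C646 values, and the C646 difference stayed at 0.65 and 0.62. Of 7 measured FXYD and pump subunit genes FXYD3 alone was past 1.5-fold, and ATP1B3 came next at 0.33 and 0.38.

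RAB3A (3854756) is a small GTPase of regulated exocytosis. It read 5.66 and 6.51 with DMSO and C646 at 6 h, and 5.61 and 6.44 at 24 h, which made its differences of 0.85 and 0.83 nearly the same at both times. RAB27A, which carries melanosomes along with its own partners, differed by 0.32 and -0.024, and RAB27B by -0.34 and 0.41. CPA4 (3023883), a secreted metallocarboxypeptidase that trims peptides from their end, read 5.35 and 6.12 at 6 h and 5.12 and 6.66 at 24 h. Its 24 h difference of 1.54 was the largest among the members and exceeded its difference of 0.78 at 6 h. The carboxypeptidases CPD and CPM differed by -0.049 and 0.0076, and by -0.22 and 0.21, while CPN1 was at 0.48 and 0.26.

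PLXNB3 (3995885), a plexin that binds semaphorin 5A, read 5.89 and 6.65 with DMSO and C646 at 6 h, and 5.84 and 6.66 at 24 h. Both C646 arrays gave it nearly the same level, and its differences were 0.77 and 0.82. It was the only plexin past 1.5-fold among 8 measured: PLXNB1 was at -0.13 and 0.23, PLXNB2 at -0.099 and 0.50, and PLXNC1 at -0.16 and -0.19. The gene of its ligand, SEMA5A, was at 0.52 and 0.34. NRG4 (3633699), an epidermal growth factor-like ligand of ERBB4, read 5.16 and 6.06 at 6 h and 4.88 and 5.48 at 24 h. Its difference of 0.90 at 6 h was larger than that of 0.59 at 24 h, which lay just inside the threshold. No single-symbol probe set of ERBB4 passed the filter, and ERBB3 differed by 0.23 and 0.43. SERINC2 (2328273), of a family of multi-pass membrane proteins, read 6.66 and 7.26 at 6 h and 6.72 and 7.71 at 24 h, whereas SERINC5 was at 0.38 and 0.35 and SERINC1 at -0.083 and 0.24.

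FYB1 and CD96 are best known from lymphocytes. FYB1 (2854327) is an adaptor that couples antigen receptors to integrins, and it read 4.33 and 5.34 with DMSO and C646 at 6 h, and 4.10 and 5.39 at 24 h. With differences of 1.01 and 1.29 it was 1 of only 2 members at least 2-fold higher at both times, a size that 0.0374% of all genes reached. CD96 (2635741), a receptor of T and natural killer cells that binds the poliovirus receptor PVR, read 5.72 and 6.75 at 6 h and 5.76 and 6.50 at 24 h, with differences of 1.03 and 0.74. Defining leukocyte markers were low on every array: PTPRC between 3.33 and 3.37, CD3E between 3.61 and 3.74 and MS4A1 between 3.06 and 3.26, all under the filter at 3.96. Of 7 leukocyte markers with a probe set of their own, 2 passed the filter, CD68 and NKG7, and the log2 of the list's summed linear values ran from 8.07 to 8.15 over the DMSO arrays and from 8.16 to 8.18 over the C646 arrays. These sums rest mostly on CD68, which read between 7.62 and 7.77. In a culture measured in bulk, fewer cells of a type and less RNA per cell cannot be told apart. The same sums of keratinocyte and fibroblast markers ran from 6.85 to 6.95 and from 7.40 to 7.49 over all arrays. Melanocyte markers, of which the rule leaves out MITF and S100B, summed to 11.46 and 11.25 with DMSO at 6 h and 24 h. With C646 they summed to 11.72 at each time, higher than with DMSO. Endothelial markers summed to 8.52 and 8.19 with DMSO and 8.93 and 8.70 with C646 at 6 h and 24 h, with 2 of 8 past the filter, KDR and CLDN5, and the defining markers PECAM1 and CDH5 under it. KDR alone read 8.12 and 7.66 with DMSO and 8.65 and 8.35 with C646. CLDN5 read between 4.44 and 4.64, so the endothelial sums follow the single gene KDR. The part of these marker levels in the members' differences was not tested. Of 10 measured genes of leukocyte signalling and adhesion, 3 were at least 1.5-fold higher at both times, beside 0.458% of all genes. They were these 2 and IL16, which the rule leaves out. The list was chosen with earlier results of these data known, so this count is a description and supports nothing. The partners of FYB1 and CD96 were not among the 3: SKAP2 was at 0.18 and 0.084, LCP2 at -0.39 and -0.44 and PVR at -0.0039 and -0.050. NECTIN2, of the same list, was at -0.20 and 0.21.

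B3GALT9 (3187497), named for its likeness to enzymes that add galactose to sugar chains, had the largest smaller-of-both difference. It read 5.26 and 6.29 with DMSO and C646 at 6 h, and 5.34 and 6.37 at 24 h, a difference of 1.02 and 1.03. The DMSO pair lay 0.078 apart and the C646 pair 0.085 apart. Among 19 measured glycosyltransferases it was the only one at least 1.5-fold higher at both times. B3GALT2 was at -0.14 and 1.12, MGAT1 at 0.46 and 0.25, ST8SIA5 at 0.54 and 0.18 and B3GNT5 at -0.15 and -0.47.

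FAXDC2 (2882834) has a fatty acid hydroxylase domain. It read 4.71 and 5.50 with DMSO and C646 at 6 h, and 4.60 and 6.12 at 24 h. The differences were 0.80 and 1.52, the highest value being that of C646 at 24 h. SUOX (3417184), the mitochondrial enzyme that oxidises sulfite to sulfate, read 5.93 and 6.55 at 6 h and 5.89 and 6.86 at 24 h, with differences of 0.61 and 0.98. None of the other 8 measured genes of sulfite, sulfide and molybdenum cofactor handling was past 1.5-fold at either time; SQOR was at -0.19 and -0.25 and MOCS2 at 0.14 and 0.16. C19orf12 (3857808), a membrane protein of mitochondria and the endoplasmic reticulum, read 6.33 and 7.05 at 6 h and 6.78 and 7.62 at 24 h. It was the member with the largest increase in the vehicle, 0.45, and DMSO at 24 h lay 0.27 under C646 at 6 h, the narrowest gap of the 29. FAHD2A (2564793), with a fumarylacetoacetate hydrolase domain, read 5.38 and 6.52 at 6 h and 5.52 and 6.11 at 24 h, so its difference of 1.14 at 6 h, the largest of any member at that time, was 0.60 at 24 h.

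BHLHE41 (3448088), also known as DEC2, is a repressor within the circadian clock that binds E-boxes, and its own window holds the E-box shown earlier. It read 5.82 and 6.52 with DMSO and C646 at 6 h, and 5.73 and 6.49 at 24 h. The differences were 0.71 and 0.76. Of 12 measured clock genes it was the only one past 1.5-fold at both times: its paralogue BHLHE40 was at -0.24 and 0.51, DBP at 0.48 and 0.84, CIART at 0.27 and 0.61 and CRY1 at -0.54 and -0.75. CIART also differed by 0.54 between the DMSO arrays. MINDY1 (2434746), a deubiquitinase that trims long ubiquitin chains, read 5.62 and 6.47 at 6 h and 5.68 and 6.79 at 24 h, with differences of 0.85 and 1.11. MINDY2 was at -0.081 and 0.64 and MINDY3 at 0.13 and 0.30. CILK1 (2957499), a kinase of the primary cilium, read 7.75 and 8.47 at 6 h and 7.42 and 8.07 at 24 h, lower at 24 h in both treatments, and its relative MOK was at 0.041 and 0.29. PWWP3B (3986168), with a chromatin-binding PWWP domain, read 4.64 and 5.31 at 6 h and 4.82 and 5.49 at 24 h, a difference of 0.66 and 0.67, beside -0.10 and -0.050 for PWWP3A.

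TIGD1 and PGBD4 are genes derived from DNA transposons of the Tigger and piggyBac kinds. TIGD1 (2603897) read 5.16 and 5.84 with DMSO and C646 at 6 h, and 5.15 and 5.80 at 24 h. PGBD4 (3588062) read 5.70 and 6.32 at 6 h and 5.56 and 6.27 at 24 h. The differences were 0.68 and 0.65 for TIGD1 and 0.62 and 0.71 for PGBD4, while the other 4 measured genes of this kind lay between -0.099 and 0.39 at 6 h and between -0.13 and 0.21 at 24 h. TIGD1 belongs to a repeat family with many related copies, which these probe sets may not tell apart.

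Of the remaining members, FAM120C (4009558) read 6.93 and 7.53 with DMSO and C646 at 6 h, and 7.14 and 8.36 at 24 h. Its C646 value gained 0.83 from 6 h to 24 h, the most of any member, and its relatives FAM120A and FAM120B were at -0.061 and -0.15, and at 0.052 and -0.057, the first on a probe set numbered among another chromosome's. C1orf56 (2358671) read 6.12 and 6.77 at 6 h and 5.88 and 6.90 at 24 h. The pseudogene FRG2DP (3689725) read 3.88 and 4.60 at 6 h and 3.82 and 4.96 at 24 h, with both DMSO values under the filter at 3.96. PDCD6P1 (2798536) read 6.34 and 7.01 at 6 h and 6.54 and 7.18 at 24 h. Both are pseudogenes with close copies elsewhere, so their values are uncertain. RRP15 (2380586), a factor of ribosomal RNA processing, read 8.82 and 9.41 at 6 h and 8.39 and 9.11 at 24 h, whereas the other 6 measured genes of the RRP names lay between -0.15 and 0.24 at 6 h and between -0.46 and 0.061 at 24 h.

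**Figure D3:**
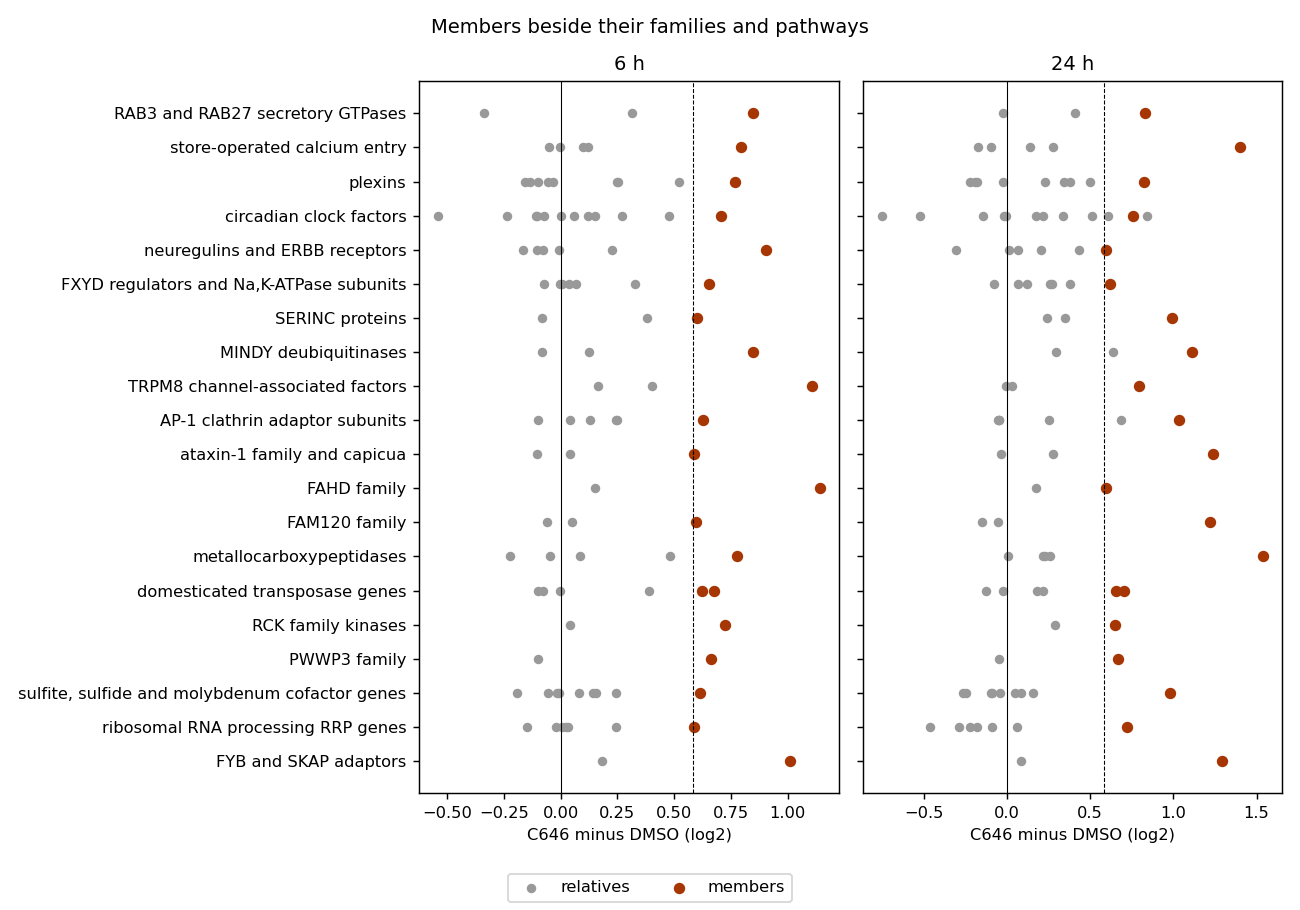
Each row is a family or pathway of a member, and points give the C646 minus DMSO difference (log2) of every measured gene at 6 h (left) and 24 h (right), members in red-brown and relatives in grey, with a dashed line at 0.585. At 6 h all grey points lie left of the line, and at 24 h 4 lie right of it: DBP, CIART, MINDY2 and AP1G2.

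For 3 members the probe set and the gene name did not go together by chromosome. The numbers of these probe sets run along the chromosomes, and those of AP1S2 (3765122), RFESD (3481165) and ATXN1L (3294780) are numbered among probe sets of chromosomes 17, 13 and 10, while the genes lie on X, 5 and 16. Such a mismatch held for 10.3% of the members and for 4.76% of all genes. AP1S2, a small subunit of a clathrin adaptor, read 8.65 and 9.28 with DMSO and C646 at 6 h, and 8.22 and 9.26 at 24 h on this probe set. RFESD, named for its iron-sulfur domain, read 3.84 and 4.66 at 6 h and 3.73 and 4.398 at 24 h. As with FRG2DP, both of its DMSO values were under the filter at 3.96. ATXN1L, a partner of the repressor capicua, read 8.89 and 9.48 at 6 h and 8.35 and 9.59 at 24 h. The probe set of ATXN1L numbered on its own chromosome (3667739) differed by -0.18 and 0.021, and that of RFESD (2820905) lay under the filter, between 3.22 and 3.34 on all arrays. These 3 names are therefore given as the annotation has them. Only chromosomes were compared, so a mismatch within a chromosome would not show. The probe set of PDCD6P1 (2798536) is numbered beside that of SDHA (2798538). SDHA is not among the 2 nearest protein-coding genes on either side of PDCD6P1 in RefSeq order, so this name is uncertain too.

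Of 29 members, 7 had 11 further single-symbol probe sets, of which 8 passed the filter. None of the 11 was at least 1.5-fold higher at both times, 1 was at 6 h and 0 were at 24 h, and their medians were 0.092 and 0.038. That of MINDY1 (2434685) was at 0.051 and 0.083, that of C19orf12 (3857811) at 0.15 and 0.13, and those of FAHD2A at 0.48 and -0.0050 (2494103) and, under the filter, at 0.060 and -0.26 (2571724). RRP15 had 4, of which 2380582, at 0.59 and 0.075, and 2380584, at 0.58 and 0.54, came close to the member's at 6 h. The others were 2380588 at 0.092 and 0.34 and 2380554 at -0.074 and 0.038. That of TCAF2 (3029352) was at 0.13 and -0.037, under the filter. A further 15 probe sets name a member together with other genes, and none of these was past 1.5-fold at both times, the highest being 0.45 at 6 h and 0.47 at 24 h. Under the rule the probe set of highest mean stands for a gene. Averaging all probe sets of a gene past the filter left 24 of 29 members, without MINDY1, C19orf12, FAHD2A, RRP15 and ATXN1L. These 5 are all the members with another probe set past the filter, so every call that averaging could change was lost. For MINDY1 and FAHD2A that other probe set read near the filter at 3.96, from 3.90 to 4.02 and from 3.81 to 4.29 over the arrays. Those of C19orf12 and ATXN1L read higher, from 4.97 to 5.28 and from 5.90 to 6.34. Those of RRP15 read between 4.12 and 8.82. FAHD2A also has near-identical copies, FAHD2B and FAHD2CP, that share probe sets with it, so its value is uncertain.

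**Figure D4:**
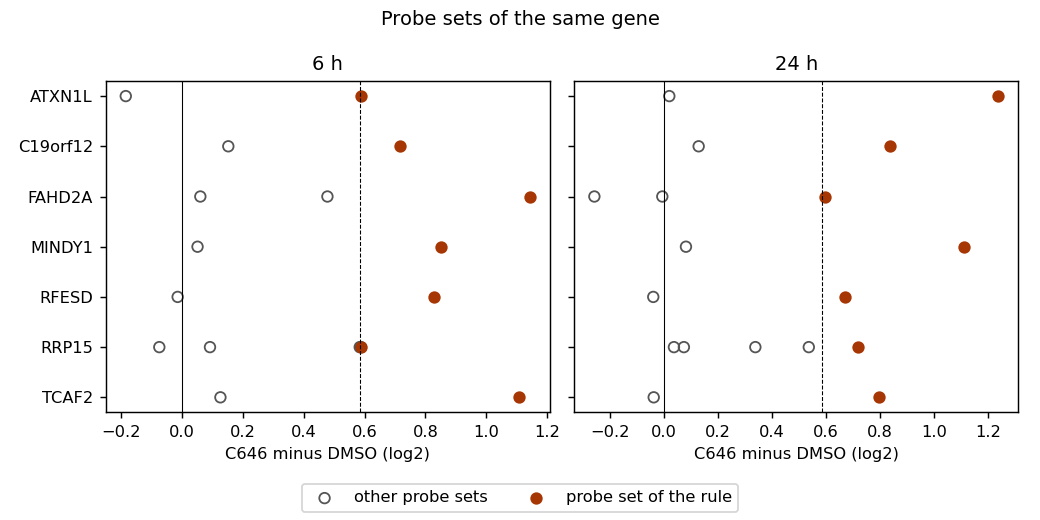
For the 7 members with further single-symbol probe sets, the C646 minus DMSO difference (log2) is plotted at 6 h (left) and 24 h (right), with filled points for the probe set the rule used and open circles for the others. The open circles lie left of the dashed line at 0.585, except for 1 of RRP15 at 6 h at 0.59, which with another of RRP15 at 0.58 is covered by the filled point.

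The time course within each treatment was not used by the rule as such, although it shares its arrays with both differences. From 6 h to 24 h, the DMSO values of the members differed by a median of -0.057 (range -0.54 to 0.45), beside -0.014 over all genes. Of the 29, 19 were lower at 24 h in DMSO, and 54.7% of all genes were. None differed 1.5-fold in DMSO, where 0.411% of all genes were that much higher and 0.355% that much lower. The C646 values differed by a median of 0.052 (range -0.58 to 0.83), beside 0.016 over all genes. Of the 29, 13 were lower at 24 h under C646, and 47.3% of all genes were. In turn 2 of 29 members were at least 1.5-fold higher at 24 h than at 6 h under C646, FAXDC2 and FAM120C, beside 3.39% of all genes.

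With a margin of 0.3 chosen after the values were seen, the C646 level of 15 members was within the margin at both times. Among these were B3GALT9, RAB3A, PLXNB3, BHLHE41 and TIGD1, whose DMSO values also lay within 0.1 of each other. In 9 members the C646 level was higher at 24 h, among them FAM120C by 0.83, FAXDC2 by 0.62, C19orf12 by 0.57, CPA4 by 0.54, ORAI3 by 0.52 and SERINC2 by 0.45. In C19orf12 and FAM120C the DMSO values were also higher at 24 h, by 0.45 and 0.20. In 5 members the C646 level was lower at 24 h: NRG4 by -0.58, FAHD2A by -0.41, CILK1 by -0.40, FXYD3 by -0.37 and RRP15 by -0.31. In CILK1, FXYD3 and RRP15 the DMSO values were lower by a like amount, -0.33, -0.33 and -0.44. For AP1S2 and ATXN1L the larger C646 difference at 24 h came with lower DMSO values at that time, by -0.44 and -0.54, while their C646 values differed by -0.024 and 0.11. In all, the C646 difference was larger at 24 h than at 6 h in 19 of 29 members and in 54.8% of all genes.

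**Figure D5:**
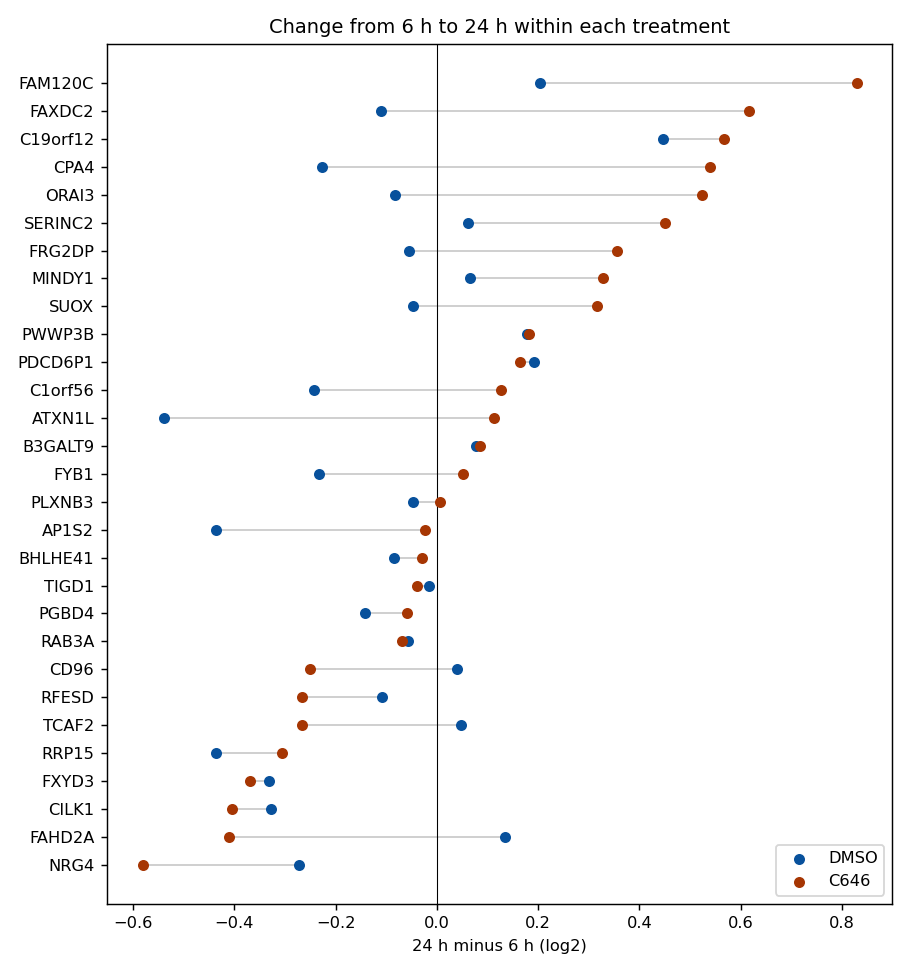
For each of the 29 members, the change from 6 h to 24 h (log2) is plotted for DMSO in blue and for C646 in red-brown, joined by a line whose length is the gain or loss of the C646 difference between the times. FAM120C (0.83) is at the top and NRG4 (-0.58) at the bottom by C646 change, and the points of B3GALT9, RAB3A and PWWP3B nearly coincide.

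The members lay on 12 chromosomes, at most 4 on any of them. MINDY1 and C1orf56 are close together on chromosome 1, with PRUNE1 and BNIPL among the genes between them. PRUNE1 differed by 0.34 and 0.28. Taking the 2 nearest protein-coding genes on each side of every member in RefSeq order, 65 were measured, and their medians were 0.028 at 6 h and 0.026 at 24 h, close to all genes. None was at least 1.5-fold higher at both times. At 6 h 1 was, GSTA4 beside CILK1 (0.69 and 0.51). At 24 h 2 were, IFI30 beside RAB3A (0.32 and 0.80) and RAB5B beside SUOX (0.36 and 0.71). Neighbours were those of the named gene, also for AP1S2, RFESD, ATXN1L and PDCD6P1, whose probe sets are numbered elsewhere.

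The other gene groups examined, given next, held none of the members. Over all genes, 0.943% were at least 1.5-fold higher at 6 h, 4.36% at 24 h and 0.458% at both times. In the melanocyte lineage and pigmentation list, 19 of 21 measured genes were above 0 at 6 h and 17 at 24 h, beside 50.7% and 55.1% of all genes, and 3 were at least 1.5-fold higher at both times, MITF, IRF4 and S100B, which the rule leaves out. Among MITF targets outside pigmentation, 2 of 19 were, IRF4 and PPARGC1A, and BEST1 missed narrowly at 0.96 and 0.58. Of 24 measured p53 targets, 18 were at least 1.5-fold higher at 24 h but 0 were at 6 h, and of 24 interferon response genes 6 and 0 were; no member belongs to either list. FOXO and quiescence genes had 6 of 19 at least 1.5-fold higher at 24 h and 1 at both times, YPEL2. At both times 1 of 4 aryl hydrocarbon receptor response genes was, CYP1A1. The single gene PPARGC1A, a coactivator of mitochondrial biogenesis that several lists share, was the 1 of 17 cAMP and CREB response genes and the 1 of 22 genes of oxidative phosphorylation and mitochondrial biogenesis. The rule leaves out YPEL2, CYP1A1 and PPARGC1A by name. At both times 0 of 22 genes of receptor tyrosine kinases and neural adhesion, 0 of 23 of lysosome and autophagy and 0 of 18 of cullin neddylation were. All 27 measured genes of G2 and mitosis were at least 1.5-fold lower at 24 h, beside 5.81% of all genes. CREBBP, the gene of CBP, was at -0.11 and 0.016, and the probe set that names EP300 also names a microRNA gene.

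Membership near the threshold was narrow. Just inside were ATXN1L (0.588 at 6 h), RRP15 (0.589 at 6 h), NRG4 (0.595 at 24 h) and FAM120C (0.596 at 6 h). Just outside were the Notch target HEY1 (0.584 at 6 h, 0.89 at 24 h), BEST1 (0.582 at 24 h), the TGF-beta pseudoreceptor BAMBI (0.582 at 6 h, 1.26 at 24 h), the potassium channel gene KCNJ10 (0.581 at 24 h) and CITED2, which binds p300 and CBP (0.580 at 6 h, 1.56 at 24 h). Set against the mean of both DMSO arrays in place of the array of the same time, 20 of the 29 members stayed past 1.5-fold at both times. The 9 that did not were C19orf12, PWWP3B, CILK1, PDCD6P1, FXYD3, SERINC2, FAM120C, NRG4 and RRP15. Centring each array on its median ended the calls of FAHD2A, NRG4, RRP15 and ATXN1L, and quantile normalization that of FXYD3.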

How the data were processed

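Gene-level log2 values of 4 Affymetrix Human Exon 1.0 ST arrays were taken as the authors deposited them; their range fits a log scale, and the summarisation and normalisation are not given in the sources used here. Per the submitters' processing notes, the build was hg19. Symbols came from the platform annotation, updated through Entrez identifiers with a RefSeq table of GRCh38.p14 (20362 of 20429 single-symbol probe sets matched). Probe sets with a mean at or above the 40th percentile (3.96) were kept, and the probe set of highest mean stood for a gene. Biotypes from RefSeq identified noncoding RNA; pseudogenes were kept. A probe set was placed by the commonest chromosome of its 20 nearest numbered neighbours.

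With 1 array a group, no test was run; differences, medians and counts are descriptions. The counting was tested on simulated data. The members, the lists and the motifs were chosen with earlier results of these data known, and the families after the members were known. All members are named; promoters are shown for members with an E-box or M-box on a probe set of their own chromosome. Python 3.11.15 and pandas 2.3.3 were used.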

Additional observations from a re-analysis of the deposited data

How the results depend on the processing

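The count of members was 29. It was 30 without the filter, 25 with the filter at the 60th percentile, 31 with quantile normalization (28 shared, without FXYD3), 25 with each array centred on its median (without FAHD2A, NRG4, RRP15 and ATXN1L), 24 with the mean of a gene's probe sets, 30 with any probe set, 42 against the mean of both DMSO arrays (20 shared), 26 with own-chromosome probe sets and, an alternative chosen after seeing the data, 27 with protein-coding genes alone. It was 2 at 2-fold, 72 at 1.4-fold and, also chosen after seeing the data, 49 with no exclusions. The median differences moved by less than 0.1 under normalization, centring, the mean of probe sets, both DMSO arrays and own-chromosome probe sets, wherever each was run. The mean of probe sets could change only the 5 members with another probe set past the filter, and all 5 lost their calls. For MINDY1 and FAHD2A that other probe set read near the filter. With the other probe sets averaged per gene, an alternative chosen after seeing the data, the medians over the 7 members that have any were 0.13 at 6 h and 0.021 at 24 h; the cause was not tested. No paired analysis was possible because the labels give no replicate numbers and each group has 1 array. A fit of treatment and time over the 4 arrays was not run, since the members were chosen on its contrast. The motif counts on own-chromosome probe sets were also chosen after seeing the data. Precision is limited by having 4 arrays.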
